A study of Arabidopsis thaliana with 15 samples.

Results

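Plants that carried a repressor form of the transcription factor ANAC046 (35S:ANAC046-SRDX; SRDX) were set directly against plants that had lost the factor (anac046 knockout; KO), both after 5 days of darkness. These are 6 of the 15 one-color arrays of the series, 3 of SRDX and 3 of KO, picked by genotype and time in the dark. The 3 wild-type arrays of the same time point (WT) are given for orientation, and the 6 arrays of light-grown plants were not compared. The 35S promoter, which is active in nearly all tissues, drove the fusion in SRDX plants, and the 3 SRDX replicates were independent transformed lines in the Columbia-0 ecotype. KO was a single line, SM_3_27647, with a transposon in the coding region of the gene, and no group received another agent. In the labels the dark-treated samples are seedlings on agar, whereas the Methods name leaves of dark-treated plants, so the sources differ on the tissue.

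ANAC046 belongs to the NAC family, a large plant-specific family of transcription factors, and stands in the same branch as ORE1 and ORS1, which promote leaf senescence. It activates genes that break down chlorophyll. SRDX is a short motif modified from the repression motif of SUPERMAN (SUP), a zinc-finger repressor of flower development. A factor fused to it represses the genes it binds, including those that related factors would still activate in a knockout. The comparison therefore asks what the chimeric repressor changes in addition to loss of ANAC046.

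The arrays were not evenly spread over the glass slides, each of which holds 4 arrays. SRDX replicates 1 and 2 were on a slide with no other dark-treated genotype, and SRDX replicate 3 shared its slide with all 3 KO arrays. Over all genes tested its highest correlation with any dark-treated array was with KO replicate 1 (r = 0.989), against 0.977 and 0.962 with SRDX replicates 1 and 2. The share of probes well above background was 77.5, 77.6 and 68.4% in SRDX replicates 1 to 3, 67.0 to 68.7% in KO, and 76.3 to 80.9% in WT. Each comparison was therefore made with all 3 SRDX arrays, with SRDX replicates 1 and 2 alone, and with SRDX replicate 3 alone against KO within their slide. Without SRDX replicate 3, slide and genotype cannot be told apart. Within the slide, 1 array of 1 line stood against 3 of KO. A difference of genotype there cannot be told apart from a difference of that line or array. Between SRDX replicate 3 and SRDX replicates 1 and 2, line and slide cannot be told apart. The leaf genes of the light-harvesting and photosystem lists were detected, 49 of 49 tested being well above background on all 6 SRDX and KO arrays. Of all 25457 genes tested, 21742 were so on all 3 SRDX arrays and 21358 on all 3 KO arrays.

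ANAC046 (AT3G04060) itself separated the genotypes in every replicate, SRDX replicate 3 included. Its normalized signal, on a log2 scale in which 0 is near the median of the array, was 6.29, 6.42 and 6.29 in SRDX, against -4.63, -4.38 and -4.53 in KO and 5.11, 5.35 and 5.22 in WT. The KO arrays were not well above background, so the difference is a lower bound: SRDX was at least 586-fold higher than KO (limma, adjusted p = 3.65e-09). Such bounds compare the mean of the bright group with the lowest signal that passed as well above background on each dim array, or with the dim probe itself where that was higher. The probe cannot separate the native transcript from that of the transgene.

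SUP (AT3G23130) was the other gene with a difference of this order. One of its 2 probes read 5.81, 5.79 and 6.02 in SRDX, against -5.33 on each KO array and -5.15, -4.82 and -5.20 in WT, and neither KO nor WT was well above background. SRDX was at least 426-fold higher than KO (limma, adjusted p = 3.65e-09). The other SUP probe read -3.43, -3.25 and -4.09 in SRDX and -4.47, -3.67 and -4.21 in KO, and its groups overlapped. The SRDX motif derives from SUP, but the probe sequences were not analysed here, and whether the brighter probe reads the transgene was not tested. ANAC046 set all 3 SRDX arrays, SRDX replicate 3 among them, apart from KO. SRDX was 1.11 above WT for ANAC046 on the log2 scale, but these arrays were on different slides, so that gap is no check of the label. The brighter SUP probe was picked for its difference between these same arrays, so its values are a description and no further check of the labels.

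**Figure D1:**
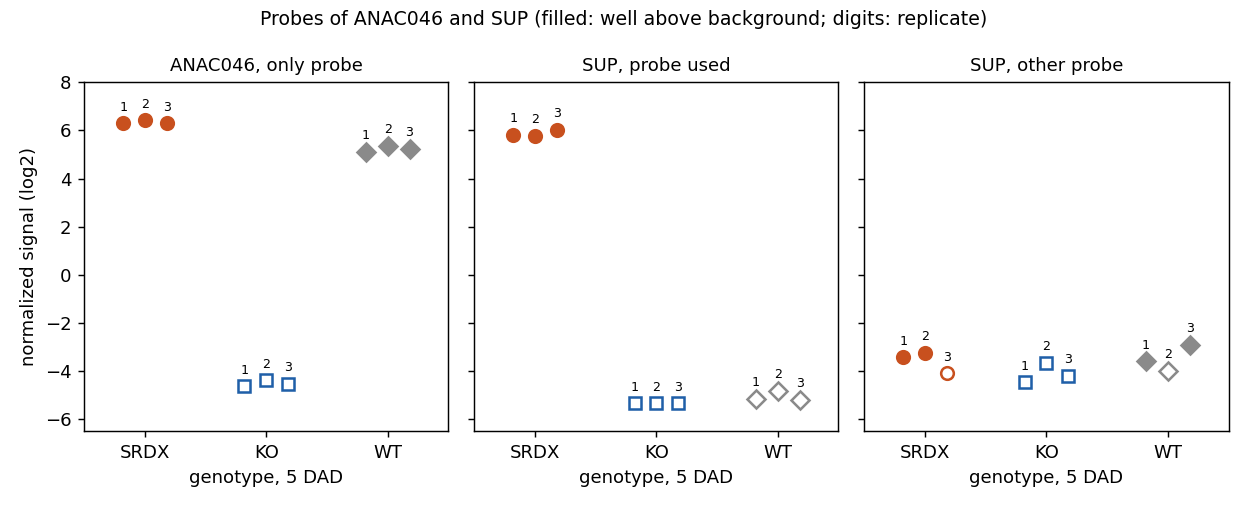
Normalized signal (log2) of the ANAC046 probe and of the 2 SUP probes on each dark-treated array, by genotype. Points are single arrays with the replicate number above, filled where the probe was well above background. The 3 SRDX arrays lie between 5.79 and 6.42 for ANAC046 and the brighter SUP probe, while all 3 KO arrays lie below -4.

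The 5 genes on each side of ANAC046 along chromosome 3 were examined because KO carries an insertion there and SRDX does not. Of these 10 neighbours, 7 were tested and none differed past the limit with all 3 SRDX arrays. The limit is an adjusted p under 0.15 throughout. Differences in SRDX minus KO ran from -0.55 for MYR2 to 0.83 for AT3G04040 on the log2 scale. ANAC047, the next gene after ANAC046 and another NAC factor, had 5.69, 5.37 and 5.37 in SRDX against 5.42, 5.49 and 5.46 in KO. AT3G04050, the gene just before ANAC046, had -2.21, -1.47 and -3.56 in SRDX and -3.18, -2.85 and -2.83 in KO. No KO array was well above background there. Without SRDX replicate 3, AT3G04050 alone of the tested neighbours passed the limit, higher in SRDX (limma, adjusted p = 0.0654). There 7.29% of all genes tested did so. Its difference was -0.61 within the slide.

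With all 3 SRDX arrays, few genes separated the repressor lines from the knockout past the limit, ANAC046 and SUP among them. Of 25457 genes tested, 68 differed past the limit (0.267%), 36 being higher in SRDX (0.141%) and 32 lower (0.126%). Here a probe without a locus counts as a gene, and 20153 of those tested had a locus, as did 21 of the 36 and 28 of the 32. At an unadjusted p under 0.05 there were 3047 (12%). In all 68 genes the 3 SRDX arrays lay beyond all 3 KO arrays, as they did in 918 genes higher in SRDX (3.61%) and 2028 lower (7.97%) among all tested. All 68 also passed the limit with SRDX replicates 1 and 2 alone, and within the slide 20 did, 16 higher and 4 lower. The 68 were chosen with SRDX replicate 3 and the same KO arrays among them, so their direction in that array was fixed by the choice and nothing is read from the 20. Of the 68, 7 of the higher and 3 of the lower genes passed whichever of the 9 arrays was left out. The counts of higher and lower genes were 11 and 7 without SRDX replicate 1, 23 and 7 without KO replicate 2, 14 and 3 without KO replicate 3, and 13 or 14 and 5 or 6 without 1 of the WT arrays. These counts depended on the scaling of the arrays: 52.9% of the genes past the limit were higher in SRDX after quantile normalization, 74.7% when arrays were scaled to their 75th percentile, and 20.0% after a normexp background correction.

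Most of the 36 genes higher in SRDX were dim in KO. In 31 of them no KO array was well above background, and for 15 of these the bound exceeded 1-fold. Among all genes tested, 21358 of 25457 were well above background on all 3 KO arrays, and the others fell short on 1 or more of them. A gene dim in KO was tested only where every SRDX or every WT array was well above background. AP1 (AT1G69120), a MADS-box factor that specifies the floral meristem, had -2.10, -2.34 and -1.74 in SRDX, against -3.99, -3.77 and -3.28 in KO and -2.85 on average in WT. SRDX was above KO on every array, at least 1.74-fold (limma, adjusted p = 0.139). With 1 array left out the adjusted p of AP1 ran from 0.0286 without SRDX replicate 3 to 0.385 without SRDX replicate 1. AP1 was also the single flower marker past the limit among 5 tested of 7 listed. PISTILLATA (PI) had 3.81, 2.61 and 2.63 in SRDX and 2.76, 2.72 and 2.72 in KO, and in AG, SEP1 and SEP3 no KO array was well above background. The summed linear signal of the 5 flower markers was 15.1, 6.94 and 6.95 in SRDX, 6.93 to 7.17 in KO and 24.6 to 33.1 in WT. The part of flower tissue in the difference at AP1 was not tested.

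Other dim genes higher in SRDX include AT4G09930, at least 2.09-fold (adjusted p = 0.031), AT3G23245, at least 2.96-fold (adjusted p = 0.0756), and AT5G45570, at least 1.32-fold (adjusted p = 0.0247), all by limma. AT5G45570 had -2.09, -2.69 and -2.59 in SRDX and -4.39, -4.50 and -4.26 in KO, with WT higher than both at -1.50. HB17, a homeobox factor, was at least 1.25-fold higher in SRDX. RL1, a MYB-related factor, and SRS7, of the SHI family, also passed the limit, but their bounds were under 1 and no fold is given.

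Of the genes higher in SRDX, 5 were well above background on all 6 arrays, 3 of these 5 with a locus. SBPASE (AT3G55800), sedoheptulose-bisphosphatase of the Calvin cycle, had 2.78, 2.64 and 2.91 in SRDX, against 1.62, 1.89 and 1.99 in KO and 1.36 in WT. It was 1.92-fold higher in SRDX than in KO (log2 difference 0.94 ± 0.16 SE, limma, adjusted p = 0.146), and the value was 1.07 within the slide. SBPASE was past the limit without SRDX replicate 2 or 3 or KO replicate 1, and not without any other single array (adjusted p 0.0337 to 0.385). RVE2 (AT5G37260), a MYB-like factor related to the circadian clock, had 5.79, 5.81 and 5.45 in SRDX, 4.43, 4.60 and 4.80 in KO and 4.70 in WT, a 2.11-fold difference (adjusted p = 0.139). For SBPASE and RVE2 the groups did not overlap, and KO lay closer to WT than SRDX did. NUC-L2 (AT3G18610), a nucleolin of the nucleolus, was 1.84-fold higher in SRDX than in KO (adjusted p = 0.139), at -0.29, -0.34 and -0.60 in SRDX and -1.34, -1.21 and -1.32 in KO. There WT, at -0.53, stood with SRDX.

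Of the 32 genes lower in SRDX, 23 were well above background on all 6 arrays. FLA2 (AT4G12730), a fasciclin-like arabinogalactan protein of the cell surface, had 2.29, 2.23 and 2.16 in SRDX, against 3.82, 3.89 and 3.57 in KO and 2.91 in WT. It was 2.90-fold lower in SRDX than in KO (log2 difference -1.54 ± 0.17 SE, limma, adjusted p = 0.030), with -1.60 within the slide (adjusted p = 0.103). FLA2 passed the limit whichever of the 9 arrays was left out, and WT lay between SRDX and KO. CIPK13 (AT2G34180), a protein kinase that binds calcineurin B-like calcium sensors, had 1.83, 2.05 and 1.997 in SRDX, 3.36, 3.34 and 3.08 in KO and 3.18 in WT. Here SRDX was 2.46-fold lower than KO (adjusted p = 0.0939, or 0.0162 to 0.327 with 1 array left out, highest without SRDX replicate 1), and KO was near WT.

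Further genes of known role had smaller margins, with adjusted p from 0.139 to 0.148 in limma. FLA18, another fasciclin-like protein, had a log2 difference of -1.20 between SRDX and KO, and AGP18, an arabinogalactan protein, one of -1.35. CSLC04, a xyloglucan synthase, had 2.76, 3.09 and 2.96 in SRDX and 4.06, 4.38 and 3.89 in KO, a difference of -1.18. GXMT1, which methylates glucuronoxylan, differed by -1.26, and RSH4, named for its expression in root hairs, by -1.49. AHL18, an AT-hook protein, differed by -1.32, BCS1, an AAA-type ATPase, by -1.04, and GIF3, a coactivator of growth-regulating factors, by -0.77. Of these 8 genes, SRDX was nearer to WT than KO was in all: the SRDX minus WT difference was between -0.52 and 0.34, and the KO minus WT difference between 0.60 and 1.80.

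Other loci past the limit and lower in SRDX included AT4G19925 (-2.71), AT4G11340 (-2.27), EDA5 (-1.83) and AT3G62630 (-1.47). AT4G11340 had -3.78, -2.68 and -2.81 in SRDX, 1 of these arrays being well above background, against -0.38, -1.18 and -0.89 in KO (limma, adjusted p = 0.074). AT5G38910 and AT2G34030 were nowhere well above background in SRDX, and were at least 3.56-fold and 1.88-fold lower there than in KO.

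**Figure D2:**
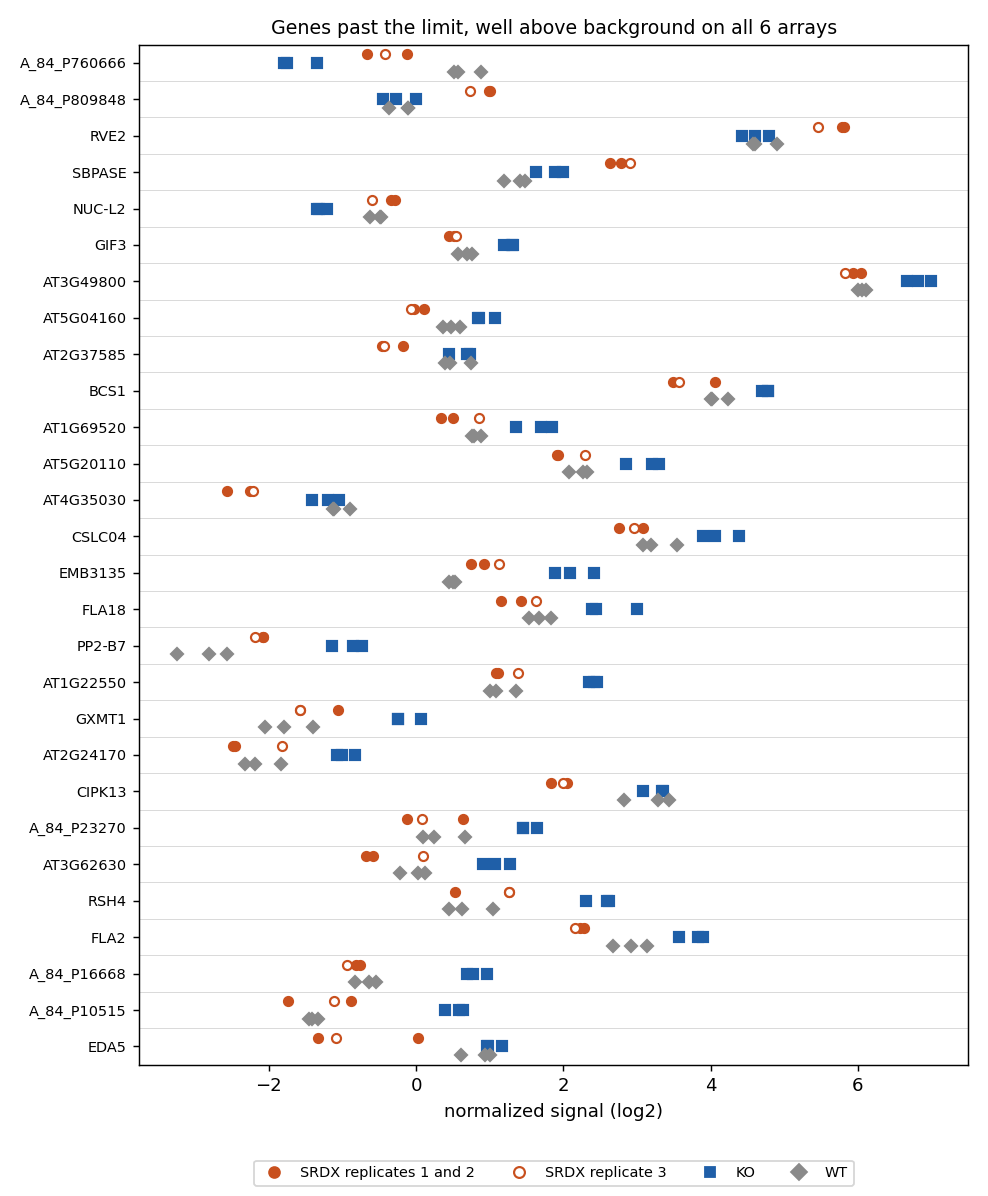
Normalized signal (log2) per array of the 28 genes past the limit that were well above background on all 6 SRDX and KO arrays, sorted by SRDX minus KO. Open circles are SRDX replicate 3, and names beginning with A_84 are probes without a locus. In each row the SRDX and KO points do not overlap, for example 2.16 to 2.29 in SRDX against 3.57 to 3.89 in KO for FLA2.

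Set beside WT, the mean of WT was closer to SRDX than to KO in 32 of the 36 genes higher in SRDX and in 24 of the 32 lower, and in 55.1% of all genes tested. In the same fit SRDX differed from WT past the limit in 11 of the 36 and in 11 of the 32, against 20.4% of all genes tested. KO did so in 33 of the 36 and in 26 of the 32, against 32.3% of all. These genes were chosen for a difference from the same KO arrays, so the counts are a description. SRDX alone differed from WT in 3 and 6 of them, RVE2 being 0.99 higher than WT in SRDX and CIPK13 1.22 lower on the log2 scale. Both sets of differences share the WT arrays, and these were on a slide of their own, so for WT a slide difference and a genotype difference cannot be told apart.

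Without SRDX replicate 3, many more genes passed the limit. With SRDX replicates 1 and 2 against KO, 3158 of 25457 genes passed the limit (12.4%), 1856 higher in SRDX (7.29%) and 1302 lower (5.11%). Of the 1856 higher genes, SRDX replicate 3 lay above all KO arrays in 23.9%, inside their range in 39.4% and below them in 36.6%, while among all genes tested it lay above KO in 23.8%. The median fitted difference of these genes was 1.296 in SRDX replicates 1 and 2 and -0.13 in SRDX replicate 3. In 1325 of the 1856, no KO array was well above background. Of all 25457 genes tested, 21358 were well above background on all 3 KO arrays, and the others fell short on 1 or more of them. Genes dim in KO were tested only through SRDX or WT. The lowest log2 signal that passed as well above background was -4.02 and -4.05 in SRDX replicates 1 and 2. It was -2.94 in SRDX replicate 3 and -2.97 to -2.78 in KO. The part of filter and slide in this count was not tested. Of the 1302 lower genes, SRDX replicate 3 lay below all KO arrays in 59.4%, against 33.1% of all genes tested, and the median difference was -1.07 in SRDX replicates 1 and 2 and -0.34 in SRDX replicate 3. The count was also sensitive to KO replicate 1, without which 951 genes were higher in SRDX (3.74%) and 738 lower (2.9%). Without SRDX replicate 2 the counts were 75 (0.295%) and 119 (0.467%).

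**Figure D3:**
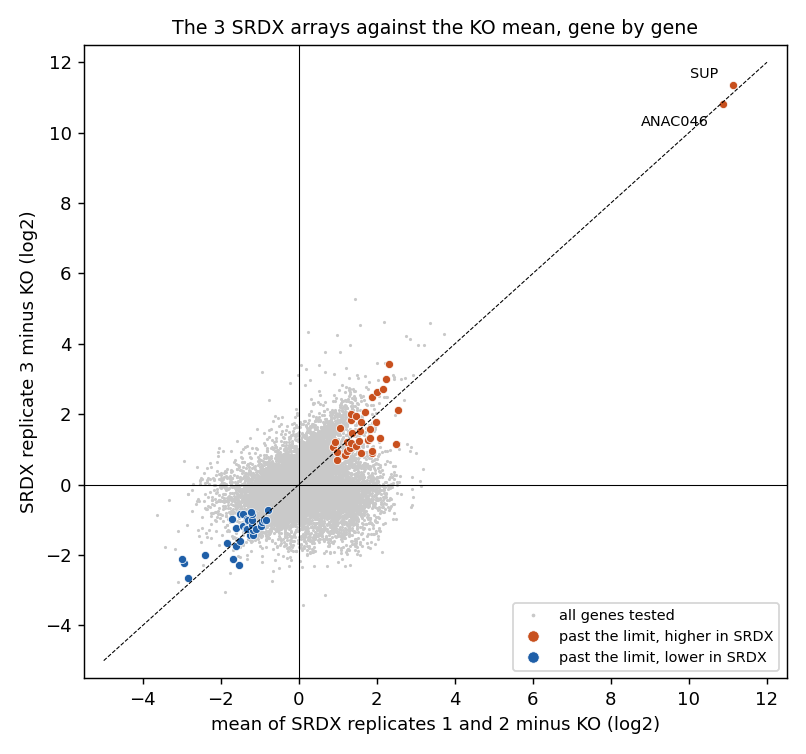
Log2 difference from the KO mean in SRDX replicate 3 (vertical) against that in the mean of SRDX replicates 1 and 2 (horizontal), per gene; both share the KO arrays. The 68 genes past the limit are colored, ANAC046 and SUP lie near 11 on both axes as fitted values against KO probes not above background, and the median over the genes past the limit without SRDX replicate 3 and higher there is 1.296 horizontally and -0.13 vertically.

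The genes with the largest change in SRDX replicates 1 and 2 were named in 2 sets, split by the place of SRDX replicate 3. Whether that array went with the others was thus fixed by the choice, and the values are a description. BSMT1 (AT3G11480), which methylates salicylic acid and benzoic acid, had 1.12, -1.62 and 0.32 in SRDX, against -2.56, -5.32 and -4.02 in KO, of which 1 array was well above background, and -1.58 in WT. BSMT1 is of the set picked with SRDX replicate 3 beyond KO on the same side. Its difference was 3.72 without that array and 4.29 within the slide, and the limma adjusted p was 0.168 with all 3 SRDX arrays. MGD3 (AT2G11810), a galactolipid synthase, had -4.33, -3.55 and -2.28 in SRDX and 0.00, -0.21 and -1.30 in KO (adjusted p = 0.158). The other set was picked with SRDX replicate 3 inside the range of KO or on its other side. AT3G21970 had -1.85, -1.54 and -5.18 in SRDX and -4.25, -4.38 and -5.16 in KO, none of the KO arrays being well above background. AT4G02300 had -4.25, -4.40 and -1.78 in SRDX against -1.92, -1.89 and -1.56 in KO.

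With slide as a term, 115 of 25455 genes passed the limit (0.452%), 28 higher in SRDX replicate 3 (0.110%) and 87 lower (0.342%).

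Among the genes of the chlorophyll catabolic pathway, none separated repressor from knockout. All 12 were tested and none passed the limit, beside 0.267% of all genes tested. In none did the groups stand apart, beside 11.6% of all genes tested. With shares this low, the counts are not read as a result about these 12 genes. Their median difference was 0.02, beside -0.04 over all genes tested, with 0.04 without SRDX replicate 3 and -0.07 within the slide. NYC1, which starts the conversion of chlorophyll b, had 9.14, 9.03 and 8.25 in SRDX, 7.98, 8.81 and 8.57 in KO and 9.87 in WT. Its difference of 0.35 had a 95% interval from -0.30 to 0.999. SGR1, which removes magnesium from chlorophyll a, had 6.14, 5.73 and 5.55 in SRDX and 5.59, 5.82 and 5.79 in KO (difference 0.08, interval -0.34 to 0.49). PAO, which opens the pigment ring, differed by -0.06 (-0.56 to 0.44), and PPH, the pheophytinase, by -0.09 (-0.85 to 0.68). These intervals are not adjusted for the number of genes. With 3 arrays a group, true differences anywhere inside them remain possible for these genes. The medians of SRDX minus WT and of KO minus WT were -0.50 and -0.57.

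In the branch of ANAC046, ANAC087 (AT5G18270), which acts with ANAC046 in developmental cell death of the root cap, had the largest difference. It had 3.81, 4.57 and 3.44 in SRDX, against 4.91, 5.43 and 5.20 in KO and 6.34 in WT. Its groups did not overlap, and 7.97% of all genes tested were likewise lower on every SRDX array. The difference of -1.24 ± 0.29 (SE) did not pass the limit with 3 SRDX arrays (limma, adjusted p = 0.197), and it was -1.74 within the slide. It passed without SRDX replicate 3 (-0.99, limma adjusted p = 0.0808), where 5.11% of all genes were lower past the limit. It also passed without SRDX replicate 2 (0.467% of all genes lower) or KO replicate 1 (2.9%), and not without any other single array. ORE1, ORS1, ANAC079 and ANAC100 differed by -0.13, 0.19, 0.01 and 0.07, none past the limit. Of 12 other senescence NAC genes and 18 senescence-associated genes none passed, where 0.267% of all genes tested did, and their medians were 0.07 and -0.01.

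Among the 27 lists, that of salicylic acid and pathogenesis-related genes had the lowest median with all 3 SRDX arrays and without SRDX replicate 3, and within the slide developmental cell death was as low. These genes cover the synthesis of salicylic acid, a hormone of defense and senescence, its amplifying regulators and its output. None of its 18 tested genes passed the limit, though 2 did, lower in SRDX, with 75th percentile scaling and 1 each with normexp and with the authors' table. At an unadjusted p under 0.05, 10 were lower in SRDX and 0 higher, against 7.16% and 4.81% of all genes tested, and in 8 the 3 SRDX arrays lay below all KO arrays, where 7.97% of all genes tested did. The median difference was -0.86 with all SRDX arrays, -0.82 without SRDX replicate 3 and -0.89 within the slide. It stayed between -0.72 and -0.87 under the other scalings and background corrections. Without SRDX replicate 3, 6 of the 18 passed the limit, all lower, where 5.11% of all genes were lower past it, and within the slide 0 did. The same count was 8 without SRDX replicate 2 (0.467% of all genes), 6 without KO replicate 1 (2.9% of all) and 0 without any other single array. In these bulk samples, fewer cells that use a gene and less RNA per cell cannot be told apart.

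The members with SRDX below KO on every array were regulators and synthesis genes. WRKY70, a regulator downstream of the hormone, had 8.33, 8.73 and 8.90 in SRDX against 9.44, 9.71 and 9.80 in KO and 8.93 in WT, a difference of -0.997 ± 0.19 (SE, limma adjusted p = 0.160). SARD1, which activates the synthesis gene ICS1, had 3.44, 3.88 and 3.40 in SRDX, 4.51, 4.45 and 4.38 in KO and 4.46 in WT. FMO1, needed for systemic immunity, had 4.66, 5.57 and 4.78 in SRDX, 6.02, 6.52 and 6.08 in KO and 5.34 in WT. PAD4, a partner of EDS1, had 5.29, 6.96 and 5.799 in SRDX and 7.20, 7.57 and 7.35 in KO. For these 4 genes every SRDX array was below every KO array, and the adjusted p ran from 0.160 to 0.258. PBS3, EDS5, WRKY54 and NPR1 also had SRDX below KO on every array. The output genes PR1, PR2 and PR5 differed by 0.09, 0.18 and 0.01, and their groups overlapped. The list's median was -0.19 in SRDX minus WT and 0.74 in KO minus WT.

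**Figure D4:**
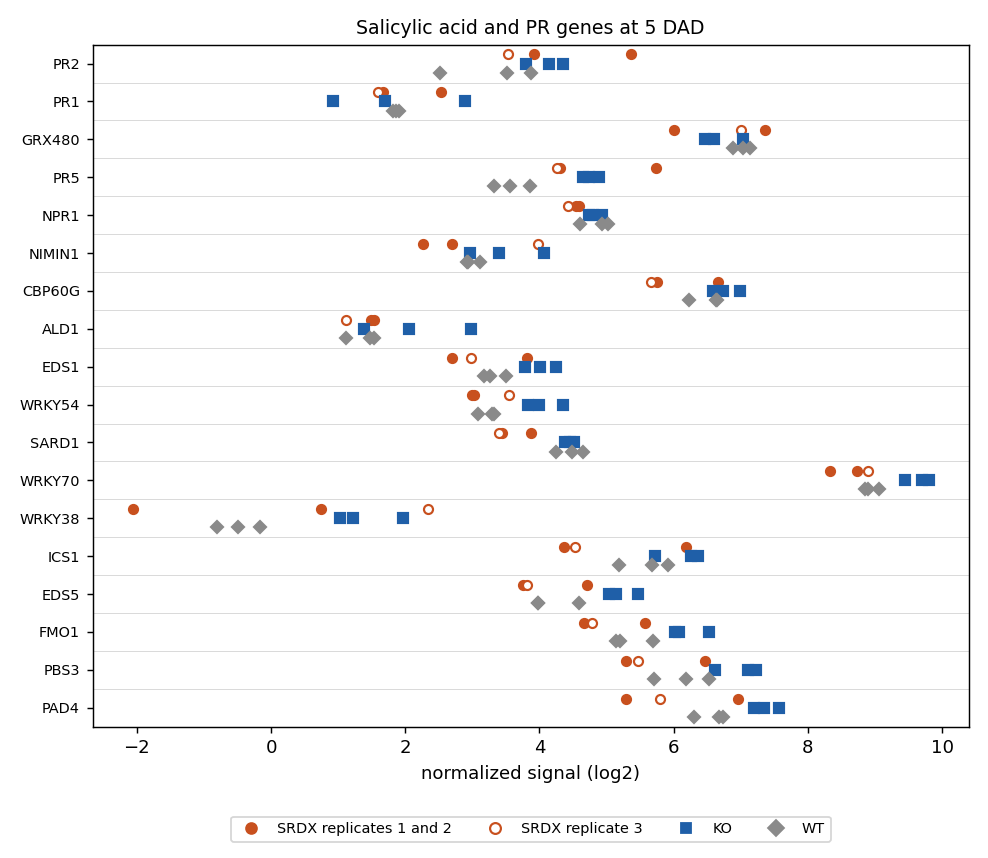
Normalized signal (log2) per array of the 18 salicylic acid and pathogenesis-related genes, sorted by SRDX minus KO. Open circles are SRDX replicate 3. In 8 genes, such as WRKY70 with 8.33 to 8.90 in SRDX and 9.44 to 9.80 in KO, the SRDX points lie left of all KO points, and for PR1, PR2 and PR5 they overlap.

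Of 28 photosystem and Calvin cycle genes, SBPASE passed the limit and none was lower past it. The median was 0.19 with 3 SRDX arrays, 0.12 without SRDX replicate 3 and 0.27 within the slide. In 5 of the 28 every SRDX array was above every KO array and in 0 below, against 3.61% and 7.97% of all genes tested. Besides SBPASE these were PSAL, FBA1, RBCS2B and CFBP1, higher by 0.40 to 0.44, with limma adjusted p from 0.338 to 0.371. None of 21 antenna genes passed, and their median was -0.12, with 2 of them higher on every SRDX array and 0 lower.

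Developmental cell death genes, which dismantle the cell, were low in both genotypes and varied widely among replicates. None of 11 passed the limit with all 3 SRDX arrays, and their median was -0.30, with -0.25 without SRDX replicate 3 and -0.90 within the slide. Without SRDX replicate 3, 2 of the 11 passed the limit higher in SRDX and 0 lower, against 7.29% and 5.11% of all genes tested. The median over the 11 genes was -2.37 in SRDX minus WT and -1.89 in KO minus WT. CEP1, a cysteine protease, had -3.15, -4.61 and -5.06 in SRDX, 1 of these arrays being well above background, against -2.87, -0.95 and -2.18 in KO and 0.33 in WT. BFN1, a nuclease, had 3.38, 1.88 and 2.19 in SRDX and 1.51, 3.93 and 3.20 in KO, so that its groups overlapped.

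Over all lists, 2 of 337 tested members (0.593%) passed the limit with 3 SRDX arrays, against 0.267% of all genes tested. Without SRDX replicate 3, 48 did (14.2%), near the 12.4% of all genes. For several lists the direction depended on that array, as for flower markers, whose median of fitted values was 1.096 without it and -0.11 within the slide, 4 of the 5 being nowhere well above background in KO.

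**Figure D5:**
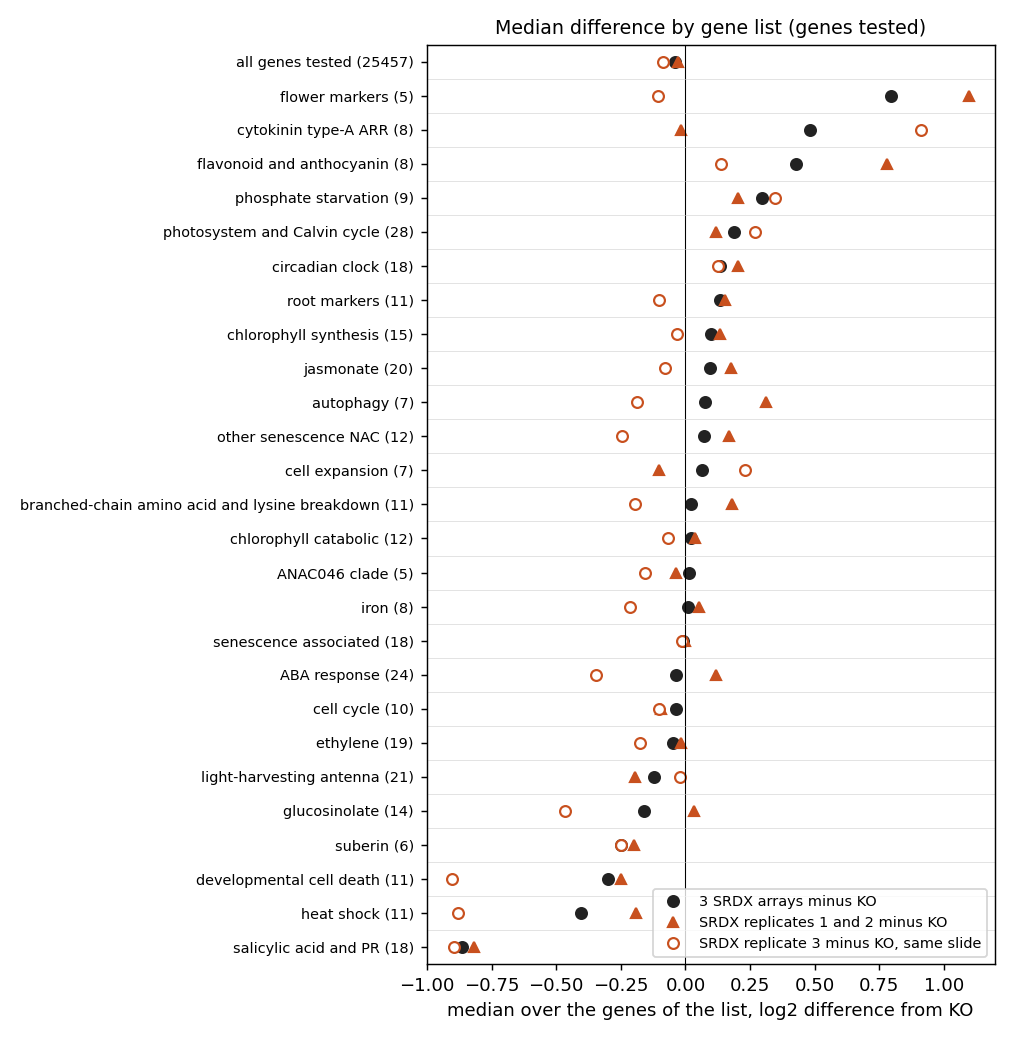
Median log2 difference from KO over the tested genes of each list with 5 or more (number in brackets), for all 3 SRDX arrays, for SRDX replicates 1 and 2, and for SRDX replicate 3 within the slide. The 3 estimates lie between -0.89 and -0.82 for salicylic acid and pathogenesis-related genes. They lie between -0.07 and 0.04 for chlorophyll catabolic genes, and spread from -0.11 to 1.096 for flower markers.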

How the data were processed

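Per the labels, the authors deposited 1 scanner file per array with spot intensities from Agilent Feature Extraction, background-subtracted but not scaled between arrays, and flags for outlier and saturated spots and for spots that rose well above background. The submitters' notes name version 9.1.3.1 and the file headers 11.5.1.1. A further table deposited by the authors holds natural log values, from the same signals after division by the median and quantile normalization. The base is not stated and was taken from the values: the gap between the 2 brightest probes matched the scanner values on that scale to 0.0002 in 13 of 15 arrays and on log2 in 0. The table served as an alternative.

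Here, outlier spots (1 to 13 per array) were left out, signals were divided by the array median, repeated spots averaged, 15 arrays quantile normalized, and log2 taken. The brightest probe stood for a locus. Of 43603 probes, 34348 matched a locus of RefSeq's TAIR10.1 table. A gene was tested if well above background on every array of SRDX, KO or WT. limma 3.58.1 (R 4.3.3) was fitted to 9 dark-treated arrays with Benjamini-Hochberg adjustment over all genes, and a limit of 0.15, the rate in the Methods. WT entered the estimate of the spread. The value within the slide comes from the same fit with slide as a term. Slides were read from the file headers, and all dark-treated arrays were scanned on the same day. The script was tested on simulated data. The number of arrays limits the precision.

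Genes named are ANAC046, its neighbours and branch, chlorophyll catabolic genes, list members past the limit, the 15 largest fitted changes each way, the 5 widest gaps each way, and the largest changes without SRDX replicate 3 split by that array's place. Other genes were chosen after their values were seen. Members and lists were chosen with earlier results of these data known. Of 384 list loci, 376 carried the list's symbol in RefSeq. Alternatives covered normalization, background, filter, probe choice, samples fitted, limit, blocks and left-out arrays.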

Additional observations from a re-analysis of the deposited data

Results flagged for a closer look

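A signal was found outside the comparison, in light-grown plants that overexpress ANAC046 without the SRDX motif (OX, 50 days after sowing). The brighter SUP probe read 1.24 in OX replicate 1, well above background, and -5.33 in OX replicates 2 and 3, against -5.32, -5.30 and -5.31 in WT of the same age. ANAC046 read 2.64, 8.95 and 9.01 in OX replicates 1 to 3 and 0.42, 0.54 and 0.77 in WT. On these 6 arrays the other SUP probe gave -4.23 to -2.74, nowhere well above background. The cause was not tested.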

How the results depend on the processing

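ANAC046 passed the limit in every setting in which it was tested, higher in SRDX each time, and no gene named by the rule that passed the limit changed direction in any setting. The counts moved far more, from 36 genes higher in SRDX and 32 lower: 136 and 46 with 75th percentile scaling, 7 and 28 with normexp, 65 and 50 with no filter on dim probes, 0 and 4 with probes well above background on all 9 arrays, 28 and 20 with 1 fit of all 15 arrays, 2 and 1 with a fit of the 6 arrays alone, 4 and 1 when these were also normalized alone, 13 and 5 at a limit of 0.05, 113 and 144 with Storey q-values, 28 and 87 with slide as a fixed term, and 18 and 8 with slide as a random block. At an unadjusted p under 0.05, the fit with probes well above background on all 9 arrays gave 2295 genes. Leaving out 1 array gave 11 to 1856 higher and 3 to 1302 lower. List members past the limit were 2, against 8 with 75th percentile scaling, 7 with Storey q-values, 4 with the mean of all probes, 1 with 15 arrays, and 0 with the fits of 6 arrays, the stricter filter, the limit of 0.05, the replicate block and both slide fits (0 to 48 when 1 array was left out). Chosen after seeing the data, 75th percentile scaling gave 4268 higher and 704 lower without SRDX replicate 3 and 52 and 119 within the slide, and a limit of 0.05 gave 1036 and 532 without SRDX replicate 3. The cause of these shifts was not tested.

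Deviations of same-numbered SRDX and KO arrays from their group means correlated at 0.21, 0.61 and -0.12. Between differently numbered arrays the values ran from -0.54 (SRDX replicate 2 with KO replicate 1) to 0.40 (SRDX replicate 3 with KO replicate 1). The same-numbered KO array was the closest for SRDX replicates 1 and 2, but not for SRDX replicate 3. Whether the numbers pair the samples was not tested. With the replicate block 8 genes were higher and 3 lower. Where KO was not above background, only bounds can be given.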

Other observations

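Some groups not described above had members whose SRDX and KO arrays did not overlap. Of the phosphate starvation genes (9 tested, median 0.30, none past the limit), 3 were higher on every SRDX array and 1 lower, against 3.61% and 7.97% of all genes tested. Of these, PHO1;H1, a phosphate exporter homolog, had -1.86, -1.50 and -1.72 in SRDX against -3.06, -2.74 and -2.80 in KO (limma adjusted p = 0.173), no KO array being well above background. SPX1, a phosphate sensor, had 4.68, 3.53 and 4.14 in SRDX and 3.22, 2.93 and 3.36 in KO. In both genes the groups did not overlap, whereas MGD3 of the same list had every SRDX array below every KO array. F3H, of flavonoid synthesis, had -2.35, -1.94 and -1.50 in SRDX and -3.02, -3.35 and -3.53 in KO (limma adjusted p = 0.232), again with no KO array well above background, and the list had a median of 0.43 over 8 genes.

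Type-A response regulators, which are induced by cytokinin, depended on SRDX replicate 3. Their median over 8 genes was 0.48 with it, -0.02 without it and 0.91 within the slide, none past the limit. ARR7 had 3.78, 2.26 and 4.90 in SRDX and 3.31, 2.65 and 3.48 in KO. Heat shock genes had a median of -0.40 over 11 genes, -0.19 without SRDX replicate 3 and -0.88 within the slide, none past the limit with all 3 SRDX arrays. Without SRDX replicate 3, 2 of the 11, HSP18.2 and HSP23.6, passed the limit higher in SRDX, against 7.29% of all genes tested.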
